A study of Mus musculus with 30 samples.

Results

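PDGFRαhi fibroblasts (FB) of the mouse small intestine were compared with PDGFRαhi FB of the colon across all expressed genes, grouped by function. The comparison rests on the 6 bulk RNA-seq libraries, of 30 in the series, that the sample labels give to this cell type, 3 from each tissue. The series holds 3 libraries of each of 10 mesenchymal populations sorted from the lamina propria of untreated C57BL6/Nrj mice aged 8 to 10 weeks, and the labels speak of the intestines of 3 mice. Muscularis externa, Peyer's patches and epithelium had been removed before digestion. After dead, lineage-positive, CD31+, BP3+, EpCAM+ and NCAMhi cells had been excluded, small intestinal PDGFRαhi FB were gated as ESAM-1-PDGFRahiCD34- cells and colonic PDGFRαhi FB as ESAM-1-PDPN+CD34- cells. PDGFRα itself was thus part of the gate in the small intestine and not in the colon, and gate and tissue cannot be told apart. The study's methods give 3 independent sorts of each population and both tissues were taken from the same mice, but neither the labels nor the methods say whether equal replicate numbers mark the same mouse.

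The gut epithelium rests on a sheet of PDGFRαhi FB. Such cells have been called telocytes and also subepithelial myofibroblasts, and the study describes it as unclear whether both names cover the same cells. PDGFRαhi FB are known as a main source of BMP ligands and non-canonical Wnt ligands, which promote differentiation of epithelial cells as these leave the crypt. They also receive Hedgehog ligands from the epithelium. The same sheet lays down much of the matrix under the basement membrane, lies close to capillaries and enteric nerve fibres, and faces a villus in the small intestine but a flat surface in the colon.

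The 6 libraries held between 6865683 and 18148945 estimated counts, of which 98% to 99.2% fell on genes with a matched identifier. Each library's level of a gene is a CPM value, its count relative to the library's effective size over these 6 libraries, and fold changes as log2 of small intestine over colon with the standard error (SE), so that a positive value means higher in the small intestine. Pearson correlations of log2 CPM between replicates lay between 0.858 and 0.942. The first principal component (38.7% of the variance) separated the tissues, and the second (26.6%) set small intestinal replicate 3 and colonic replicate 2, at -75.7 and -76.8, apart from the other libraries, at 22.9 to 55.9. The same pair had the fewest genes with a count, 15507 and 15660 against 16372 to 17317.

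The label of the cells held against its markers. All 12 markers of PDGFRαhi FB were expressed in both tissues, and none passed the call threshold. Their summed level was 16183 to 17420 CPM in the small intestine against 10410 to 11176 CPM in the colon. An adjusted p under 0.05 was reached by 3 of them, all higher in the small intestine. These were Pdgfra, Ednrb (log2 fold change 1.46, adjusted p = 0.0119) and Sox6 (log2 fold change 1.26, adjusted p = 0.0158). Pdgfra, the receptor that names the cells, was at 6706, 7133 and 7070 CPM in the small intestine and at 2615, 2671 and 2747 CPM in the colon, a difference below the fold threshold (log2 fold change 1.38, SE 0.14, adjusted p = 0.000513). Epcam, Krt8 and Msln, markers of epithelium and mesothelium, were at 0 CPM in all 6 libraries, though Muc2, a goblet cell gene, reached 127 CPM in colonic replicate 3, Esam stayed at or below 1.88 CPM, and Ptprc, a marker of leukocytes, lay between 2.82 and 6.22 CPM. Markers of mural cells moved with the tissue. Of 6 tested pericyte markers, 2 were called higher in the small intestine (Rgs5, 277 ± 106 against 58.3 ± 7.53 CPM, and Cspg4, 495 ± 219 against 135 ± 48.2 CPM; SD, n = 3), and their list summed to 452 to 1102 CPM against 137 to 247 CPM. Cspg4 lost its call in 5 of the 6 fits that left out 1 library (adjusted p up to 0.0899 without colonic replicate 2). Of 4 tested smooth muscle markers, 2 were called higher in the small intestine (Myh11 and Des), with list sums of 1293 to 2246 against 376 to 738 CPM, whereas Actg2 and Cnn1, which define mature smooth muscle, were at 8.21 ± 8.11 and 1.32 ± 0.517 CPM in the small intestine. Fgfr2 and Plpp3 of the 6 Fgfr2+ FB markers, and Cd81 and C3 of the 9 markers of CD34+ and CD81+ FB, were called higher in the colon, and Cd34 higher in the small intestine (126 ± 37.8 against 37.0 ± 2.96 CPM), although CD34- cells had been gated in both tissues. These 5 calls depended on single libraries: of the 6 fits that left out 1 library, Fgfr2 and Cd81 lost theirs in 5 (adjusted p up to 0.13 without small intestinal replicate 1 and 0.199 without colonic replicate 3), Plpp3 and C3 in 4 (up to 0.1 without colonic replicate 2 and 0.184 without colonic replicate 3) and Cd34 in 3 (up to 0.0609 without colonic replicate 1). In bulk libraries fewer cells of a type and less RNA per cell cannot be told apart, and the part that admixed cells had in the differences below was not tested.

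Small intestinal and colonic PDGFRαhi FB differed in 406 of 14558 genes tested, which is 2.79% of them. The call required an adjusted p (Benjamini-Hochberg) under 0.05 in edgeR's quasi-likelihood test, and a log2 fold change of over 1.5 in either direction. Of the 406 genes, 173 were higher in the small intestine (1.19% of genes tested) and 233 in the colon (1.60%). The 3 values of each tissue did not overlap for any of the 406 called genes, and they did not overlap for 2817 of all genes tested (19.4%). Over all genes tested the median log2 fold change was 0.01, with 7375 positive and 7183 negative values. The gene groups below are given beside these values. Their lists were written with earlier results of these data known, so a larger share of calls in a list is no test of that group. Each of the 406 differences kept its sign in each alternative that fitted it. This was nearly fixed in advance, since the tissues did not overlap for any of these genes and the same libraries were refitted. Of the 406 genes, 192 kept their call whichever library was left out. When small intestinal replicate 3 and colonic replicate 2 were left out together, 665 genes were called. Hox genes are not described here.

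**Figure D1:**
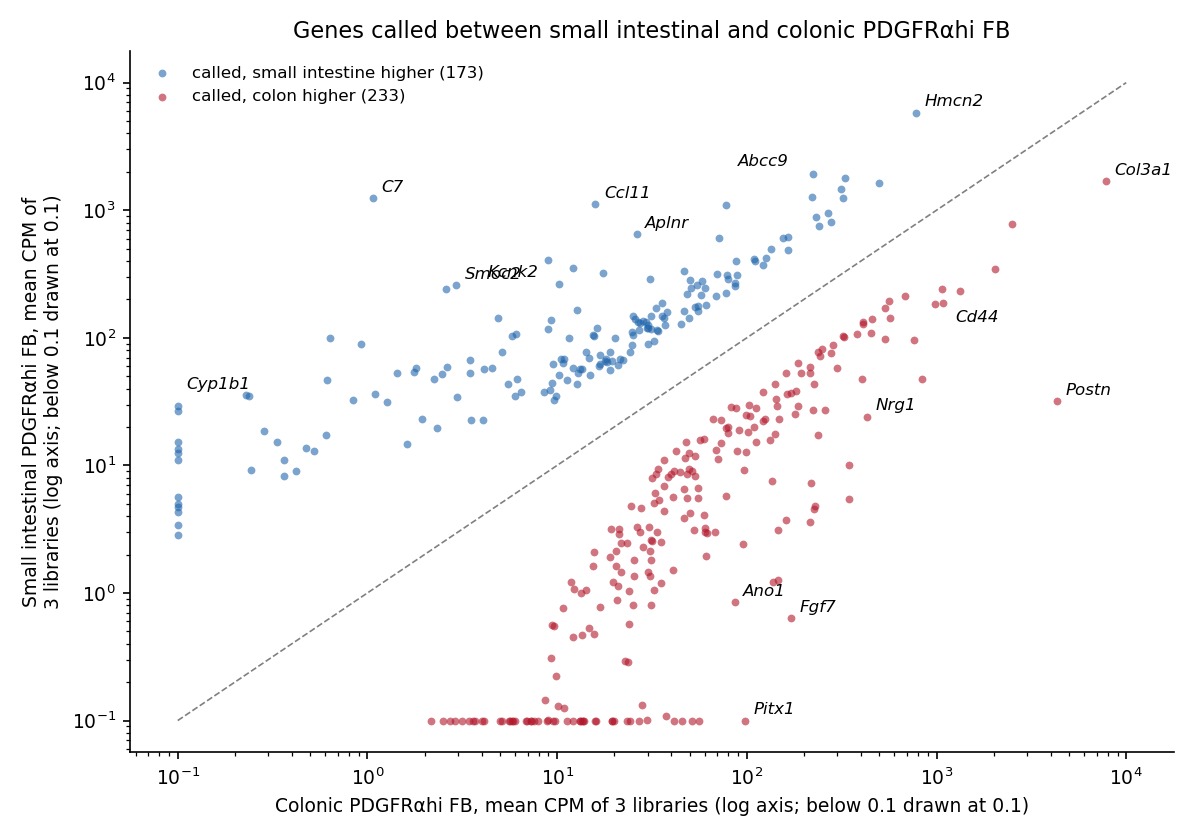
Mean CPM of 3 libraries in colonic (x axis) and small intestinal (y axis) PDGFRαhi FB for the 406 called genes, both axes logarithmic, with values below 0.1 CPM drawn at 0.1. The 173 genes higher in the small intestine lie above the dashed line of equal level and the 233 genes higher in the colon below it, from Pitx1 at 0 CPM in the small intestine to Hmcn2 and Col3a1.

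C7 and Pitx1 were almost absent from 1 tissue, and Nrg1 was low in the small intestine. C7, the complement component that joins the membrane attack complex, was at 1272, 1381 and 1090 CPM in the small intestine and at 0.134, 0.142 and 2.93 CPM in the colon (log2 fold change 10.20, SE 0.77, adjusted p = 8.73e-05). Pitx1, a homeobox factor of hindgut and hindlimb, had no count in any small intestinal library and was at 113, 74.3 and 106 CPM in the colon, at least 298-fold higher when 3 counts are taken for each small intestinal library (adjusted p = 7.17e-05). Nrg1, an EGF family ligand that acts on ERBB receptors of the crypt epithelium, was at 30.5, 35.1 and 6.76 CPM in the small intestine and at 388, 512 and 388 CPM in the colon (log2 fold change -4.14, SE 0.52, adjusted p = 0.00158). As for every called gene, the groups did not overlap for any of these, and the 3 calls were kept in each fit that left out 1 library.

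**Figure D2:**
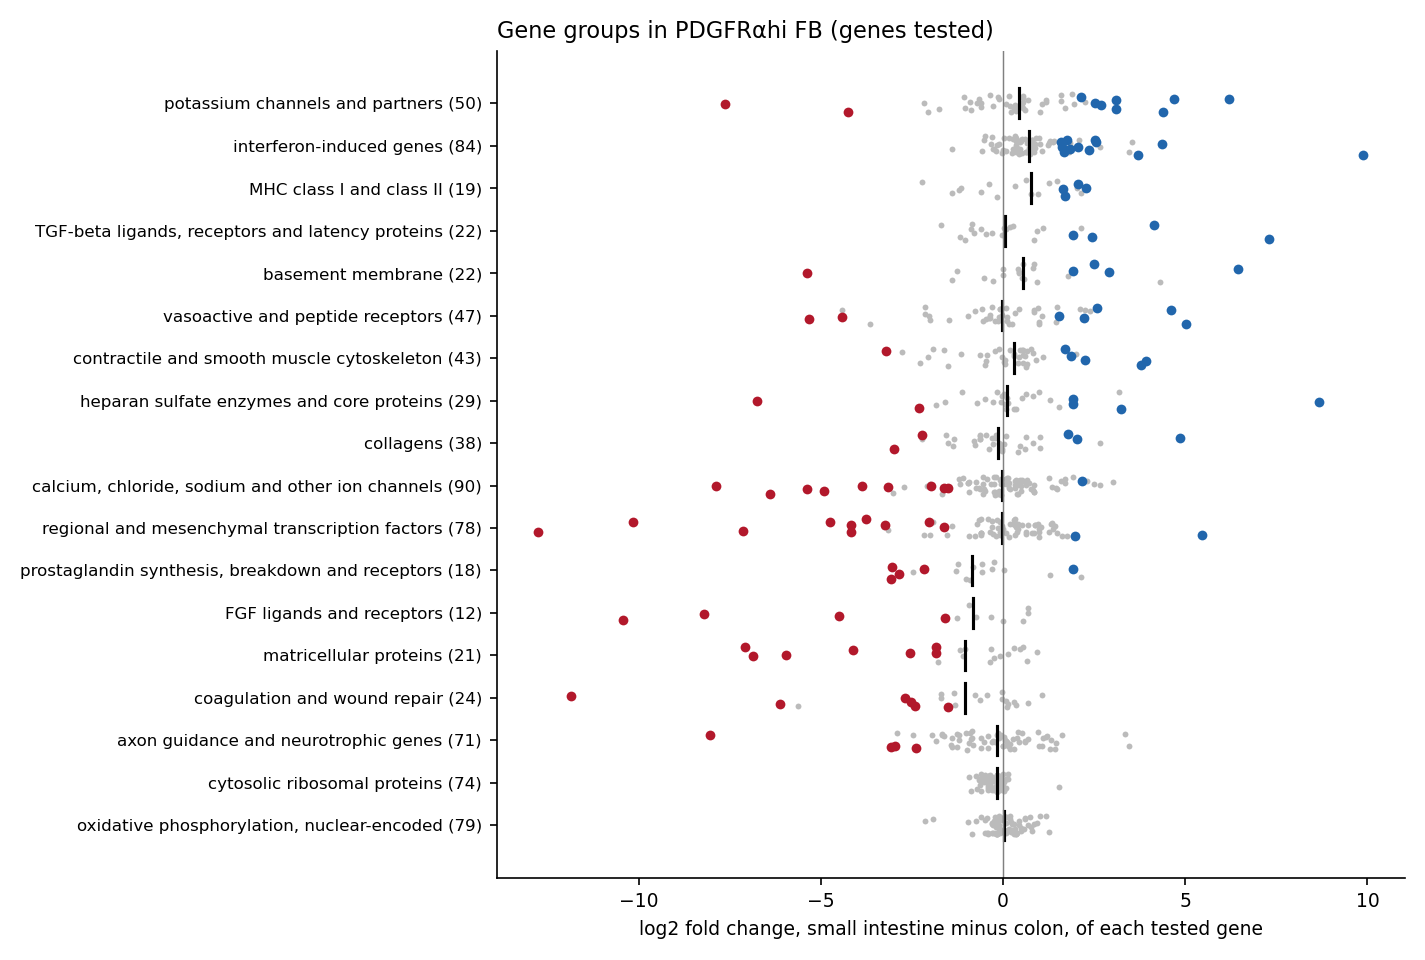
log2 fold change (small intestine minus colon) of each tested gene of 18 gene groups, with the number of genes tested in brackets and a black bar at the group's median. Called genes are blue (higher in the small intestine) or red (higher in the colon) and other genes grey; the fitted values of genes without a count in 1 tissue depend on the prior count. Potassium channels and interferon-induced genes have more blue than red points, FGF, matricellular and wound repair genes have red points only, and ribosomal and oxidative phosphorylation genes have none.

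The FGF ligands known to act on the epithelium were higher in the colon. Of 12 tested FGF ligands and receptors, 4 were called, all higher in the colon (median log2 fold change of the group -0.83). Fgf7, keratinocyte growth factor, was at 0.868, 0.294 and 0.751 CPM in the small intestine and at 213, 132 and 171 CPM in the colon (log2 fold change -8.19, SE 0.47, adjusted p = 2.95e-05). Fgf10, which shares the epithelial receptor FGFR2b with Fgf7, was at 0.289, 1.17 and 1.63 CPM against 30.7, 21.6 and 19.8 CPM (log2 fold change -4.5, SE 0.69, adjusted p = 0.00507). Neither gene had a small intestinal value near the lowest colonic one. Fgfr4 had no count in the small intestine, but its colonic values spread from 4.03 to 39.6 CPM. Fgfr1, at 398 ± 11.9 against 247 ± 56.4 CPM, and Fgf9, at 158 ± 10.9 against 197 ± 61.4 CPM, did not pass the test (adjusted p = 0.165 and 0.695). The call of Fgfr2 (52.9 ± 16.9 against 161 ± 61.8 CPM) was lost in 5 of the 6 fits that left out 1 library, with an adjusted p of up to 0.13 without small intestinal replicate 1.

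Nrg1 was the only called member among 11 tested EGF family genes. Of the receptor genes of the family, Egfr (412 ± 97.8 against 403 ± 29.8 CPM, adjusted p = 0.982) and Erbb2 (32.0 ± 26.6 against 44.6 ± 21.9 CPM, adjusted p = 0.89) did not pass the test. In the Hedgehog group of 13 tested genes, Hhip, a decoy receptor induced by the pathway, was at 2.03, 4.4 and 2.63 CPM against 65.7, 59.5 and 79.7 CPM (log2 fold change -4.46, SE 0.44, adjusted p = 0.000369). It was the only member called, against 1 to 3 called in the colon when 1 library was left out and 3 without small intestinal replicate 3 and colonic replicate 2 together. Of the other response genes, Ptch1 was at 1461 ± 222 against 2574 ± 433 CPM, which was below the fold threshold (log2 fold change -0.82, SE 0.19, adjusted p = 0.0473), and Gli1 was at 48.3 ± 19.5 against 110 ± 3.36 CPM (adjusted p = 0.109). The group's median was -0.60, with 3 positive values and 10 negative ones.

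Wnt pathway genes were called in both directions. Of 8 tested Wnt ligands and R-spondins, Wnt2b and Rspo1, both known to sustain crypt stem cells, were called higher in the colon, Wnt2b at 36.2, 13.7 and 10.1 against 104, 142 and 81.3 CPM. Wnt5a, the non-canonical ligand for which the cells are known, was at 665 ± 113 and 650 ± 87.3 CPM (log2 fold change 0.03, SE 0.21). Among 38 tested receptors, antagonists and targets, 5 were called higher in the colon and 3 in the small intestine. The transcriptional effector Lef1 was at 5.50, 4.76 and 7.01 against 84.0, 71.8 and 77.5 CPM (log2 fold change -3.76, SE 0.35, adjusted p = 0.000282), and the secreted antagonist Sfrp1 was at 33.0 ± 3.63 against 143 ± 49.6 CPM. Axin2 and Nkd1, feedback inhibitors that are standard readouts of canonical signalling, were called in the opposite direction, Axin2 at 77.4 ± 13.8 against 14.2 ± 6.63 CPM and Nkd1 at 60.5 ± 6.77 against 16.6 ± 3.57 CPM. The calls of Lef1 and Sfrp1 were kept in each fit that left out 1 library, that of Axin2 in all but the fit without colonic replicate 1 (adjusted p = 0.0529), and those of Wnt2b, Rspo1 and Nkd1 were lost in 3, 5 and 2 of the 6, with adjusted p-values of up to 0.0807 without colonic replicate 2, 0.125 without small intestinal replicate 2 and 0.0768 without colonic replicate 1. Fzd7 and Ror1 lost theirs in 4 fits each.

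Of 27 tested BMP and GDF genes, 2 were called in each direction. Bmp2 was at 207, 151 and 229 CPM in the small intestine and at 523, 565 and 590 CPM in the colon, just past the fold threshold (log2 fold change -1.51, SE 0.22, adjusted p = 0.00372), and Bmp4 was just under it (log2 fold change -1.41, SE 0.19, adjusted p = 0.00284). The fold of Bmp2 fell under the threshold in 2 of the 6 fits that left out 1 library, where its adjusted p was at most 0.0261. Bmp5, at 2566 ± 275 and 2643 ± 276 CPM, and Bmp7, at 962 ± 247 and 720 ± 20.3 CPM, did not pass the test (adjusted p = 0.966 and 0.485). The other called members were Gdf6, Fst and Chrd. Gdf6 was at 11.7, 9.46 and 11.9 CPM in the small intestine without a count in the colon, at least 26.1-fold higher, and the activin antagonist Fst was at 0.532 ± 0.291 against 14.7 ± 5.42 CPM. Chrd, a BMP antagonist, was at 121, 136 and 43.7 CPM against 12.5, 28.3 and 20.1 CPM, and its call was lost in 4 of 6 fits (adjusted p up to 0.123 without colonic replicate 1).

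The 4 called members among 22 tested TGF-β ligands, receptors and latency proteins were all higher in the small intestine. Tgfb3 was at 124, 179 and 116 CPM there and at 23.6, 26.7 and 26.8 CPM in the colon (log2 fold change 2.44, SE 0.29, adjusted p = 0.00109). Ltbp1, which tethers latent TGF-β to the matrix, was at 657, 615 and 572 against 150, 185 and 158 CPM (log2 fold change 1.91, SE 0.20, adjusted p = 0.000516). The values of the tissues did not overlap for either gene, which holds for every called gene. Ltbp2 was at 107 ± 74.2 against 6.09 ± 2.95 CPM, and Inhbb, the activin B subunit whose product Fst binds, was at 121, 147 and 29.7 against 0, 0.284 and 1.61 CPM (log2 fold change 7.30, SE 0.97, adjusted p = 0.00231). These 4 calls were kept whichever library was left out, and the median of the group was 0.06. Tgfb1 and Tgfb2 did not pass the test at 37.8 ± 20.7 against 57.8 ± 25.2 CPM and at 38.6 ± 8.69 against 78.8 ± 10.8 CPM, nor did Tgfbr1 and Tgfbr2 (adjusted p = 0.848 and 0.804).

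**Figure D3:**
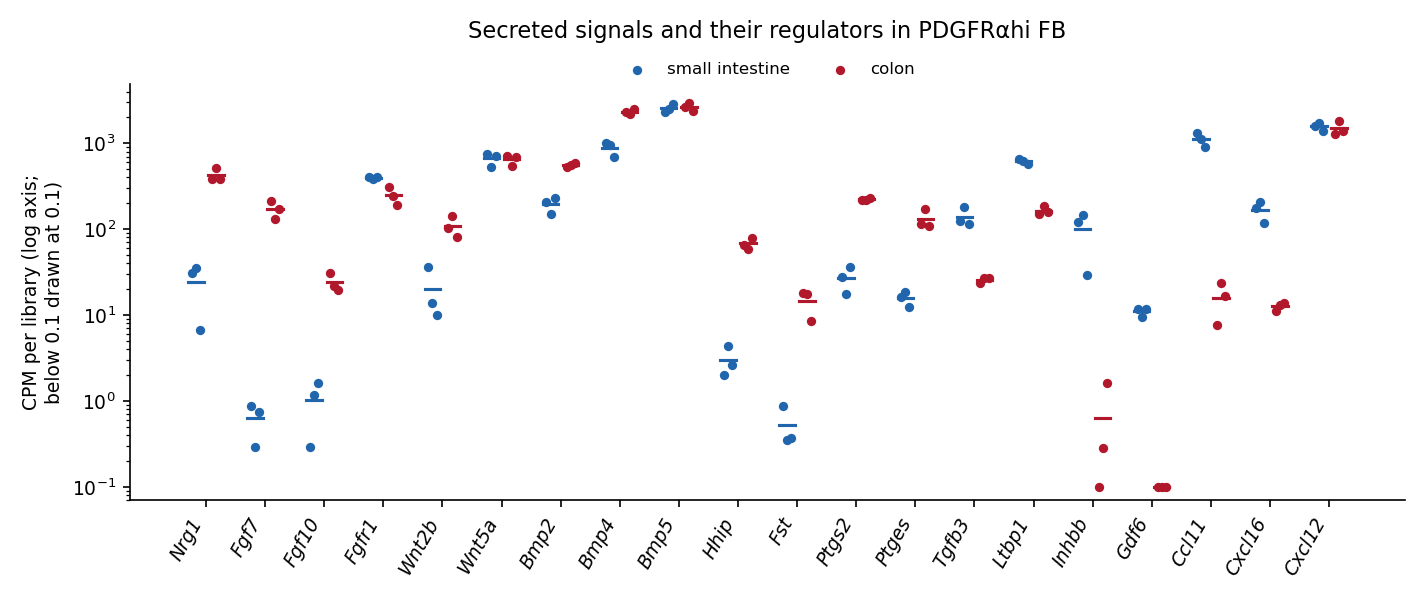
CPM of 20 secreted signals and related genes in each library (points, logarithmic axis, values below 0.1 drawn at 0.1), with bars at the mean of 3 libraries; blue is small intestine and red is colon. Fgf7, Fgf10 and Hhip have all colonic points far above the small intestinal ones, Inhbb, Gdf6, Ccl11 and Cxcl16 show the reverse, and Wnt5a, Bmp5 and Cxcl12 overlap.

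Of 18 tested genes of prostaglandin synthesis, breakdown and reception, 4 were called higher in the colon against 1 in the small intestine, with a median of -0.86. Ptgs2, the inducible cyclooxygenase, was at 27.8, 17.4 and 36.0 CPM in the small intestine and at 217, 220 and 233 CPM in the colon (log2 fold change -3.05, SE 0.31, adjusted p = 0.000448). Ptges, which makes prostaglandin E2 from the product of Ptgs2, was at 16.1, 18.7 and 12.5 against 116, 171 and 109 CPM (log2 fold change -3.06, SE 0.32, adjusted p = 0.000516). The colonic values of both lay several-fold over the highest small intestinal value. Hpgd, which degrades prostaglandins, was also higher in the colon (15.3 ± 5.64 against 112 ± 41.5 CPM), as was the thromboxane synthase Tbxas1 (17.8 ± 1.9 against 79.5 ± 19.5 CPM). Ptgis, the prostacyclin synthase, differed the other way, at 118 ± 11 against 31.3 ± 10.9 CPM. Ptgs1 (178 ± 46.8 against 362 ± 72.8 CPM), Ptger2 and Ptger4 did not pass the test (adjusted p = 0.0603, 0.719 and 0.431). Only the call of Ptgis was lost when 1 library was left out, without colonic replicate 3 (adjusted p = 0.0521).

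Potassium channels were called mainly in the small intestine. Of 50 tested channels and partner subunits, 8 were called higher in the small intestine against 2 in the colon, and the median was 0.43. The list summed to 4490 to 4708 CPM against 817 to 1105 CPM. Most of the small intestinal sum came from Abcc9, Kcnn3 and Kcnj8, whose values are given below. Kcnj8 and Abcc9 encode the pore (Kir6.1) and the sulfonylurea receptor (SUR2) of an ATP-sensitive potassium channel and are neighbours on chromosome 6 (GRCm38, chr6:142564837-142571614 and chr6:142587862-142702315). Abcc9 was at 1717, 1730 and 2288 CPM in the small intestine and at 203, 238 and 229 CPM in the colon (log2 fold change 3.1, SE 0.20, adjusted p = 5.45e-05). Kcnj8 was at 614, 739 and 465 against 66.4, 83.4 and 63.1 CPM (log2 fold change 3.09, SE 0.25, adjusted p = 0.000129). The 2 subunits thus differed by nearly the same factor, 8.56-fold and 8.54-fold. The alternative subunits Kcnj11, at 0.700 ± 0.918 and 2.32 ± 2.95 CPM, and Abcc8, with at most 0.147 CPM, were scarcely detected in either tissue.

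Other potassium channels called higher in the small intestine included channels that open through calcium or stretch. Kcnn3, a small-conductance calcium-activated channel, was at 1341, 1234 and 1217 against 193, 285 and 185 CPM (log2 fold change 2.52, SE 0.22, adjusted p = 0.000218). Kcnk2, the stretch-gated channel TREK-1, was at 254, 274 and 270 against 13.6, 8.24 and 8.79 CPM (log2 fold change 4.70, SE 0.30, adjusted p = 5.1e-05). The small intestinal values of Kcnk2 hardly differed among themselves. The colonic members were Kcnd3, at 1.59, 6.05 and 1.38 against 32.3, 100 and 47.5 CPM, and Kcns3, at no more than 0.118 CPM in the small intestine and 10.5 to 16.1 CPM in the colon. The count of members higher in the small intestine was 5 to 8 when 1 library was left out. Kcng4 lost its call in 5 of the 6 fits (adjusted p up to 0.0779 without small intestinal replicate 1). Abcc9, Kcnj8 and Rgs5 are also known as genes of pericytes, whose list moved in the same direction as given above. The part of pericytes in the result was not tested.

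Channels for other ions were mostly called the other way, 9 higher in the colon and 1 in the small intestine of 90 tested, with a median of -0.02. Ano1, a calcium-activated chloride channel known from interstitial cells of Cajal, was at 0, 2.41 and 0.125 CPM in the small intestine and at 85.7, 85.7 and 87.9 CPM in the colon (log2 fold change -6.38, SE 0.91, adjusted p = 0.00335). The other markers of interstitial cells of Cajal were not higher in the colon, Kit being at 21.3 ± 22.5 against 0.776 ± 1.1 CPM and Etv1 at 480 ± 41.2 against 190 ± 41.5 CPM. Trpa1, an irritant sensor, was at no more than 0.250 CPM against 36.2, 23.3 and 24.0 CPM, and the stretch-activated Piezo2 was at 4.1 ± 2.00 against 59.5 ± 27.0 CPM. Lrrc8c, a subunit of the volume-regulated anion channel, was at 4.2, 6.34 and 11.1 against 187, 260 and 207 CPM (log2 fold change -4.91, SE 0.39, adjusted p = 0.000129). Its relative Lrrc8d was called in the same direction. Itpr2, which releases calcium from the endoplasmic reticulum, was higher in the small intestine (133 ± 19.9 against 29.5 ± 6.08 CPM). When 1 library was left out, the count higher in the colon was 4 to 9 and that higher in the small intestine 1 to 4, and without small intestinal replicate 3 and colonic replicate 2 together they were 9 and 6. Scn7a and Cacnb3 were among the calls lost (adjusted p up to 0.0726 without colonic replicate 1 and 0.0754 without colonic replicate 3).

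Of 47 tested vasoactive genes, a list of receptors for peptides, lipids, amines and proteases with some of their ligands and enzymes, 5 were called higher in the small intestine against 2 in the colon, with a median of -0.03. Aplnr, the apelin receptor, was at 831, 780 and 325 CPM in the small intestine and at 28.4, 4.69 and 45.6 CPM in the colon (log2 fold change 4.62, SE 0.70, adjusted p = 0.00479), while its ligand gene Apln stayed at or below 0.293 CPM. F2rl1, the protease-activated receptor PAR2, was at 69.2 ± 9.58 against 14.8 ± 3.43 CPM. Ramp1, which combines with Calcrl to form the receptor for the neuropeptide CGRP, was at 39.2, 49.7 and 19.8 against 2.28, 0.142 and 0.879 CPM (log2 fold change 5.01, SE 0.81, adjusted p = 0.00688). Calcrl itself did not pass the test, at 249 ± 31 and 198 ± 26.4 CPM (log2 fold change 0.33, SE 0.22, adjusted p = 0.597). Agt, angiotensinogen, was called higher in the colon, at 5.07, 2.23 and 0 against 76.1, 99.9 and 112 CPM (log2 fold change -5.32, SE 0.87, adjusted p = 0.00727). The calls of S1pr3, a receptor for sphingosine 1-phosphate, and of the nitric oxide synthase Nos1, both higher in the small intestine, were lost in 3 and 4 of 6 fits (adjusted p up to 0.13 without colonic replicate 1 and 0.138 without colonic replicate 3). The number called higher in the small intestine was 3 to 6 when 1 library was left out and 0 to 6 over the other alternatives.

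Of 21 tested matricellular proteins, which modulate how cells hold to the matrix without building fibres, 7 were called, all higher in the colon, the median was -1.05, and the list summed to 9784 to 11598 CPM in the small intestine against 17177 to 22588 CPM in the colon. Postn, periostin, was at 32.4, 16.7 and 46.9 against 4286, 3755 and 4981 CPM (log2 fold change -7.09, SE 0.40, adjusted p = 2.95e-05). Spon2 was at 6.22, 8.57 and 1.63 against 308, 273 and 452 CPM, and Abi3bp at 0.868, 0.646 and 2.13 against 124, 115 and 174 CPM. For each of these every colonic value was far above the highest small intestinal one. Fndc1 was at 347 ± 129 against 2022 ± 164 CPM (log2 fold change -2.54), and Thbs2 at 107 ± 47.1 against 382 ± 24.1 CPM (log2 fold change -1.83). Tnc and Sparc did not pass the test, at 2045 ± 297 against 2638 ± 290 CPM and at 5645 ± 894 against 6660 ± 1808 CPM (adjusted p = 0.431 and 0.732). The count of colonic calls was 6 to 8 when 1 library was left out, and Ccn2 (15.8 ± 1.2 against 56.9 ± 17.3 CPM) lost its call in 4 of the 6 fits (adjusted p up to 0.118 without colonic replicate 1).

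Of 38 tested collagens, 3 were called higher in the small intestine against 2 in the colon, with a median of -0.14. Col3a1, the chain of type III collagen, was at 1614, 1763 and 1668 CPM in the small intestine and at 6992, 5820 and 10706 CPM in the colon (log2 fold change -2.22, SE 0.23, adjusted p = 0.000469). Col1a1 and Col1a2, with which type III collagen forms mixed fibrils, did not pass the test, at 4930 ± 1125 against 7700 ± 2260 CPM and at 4140 ± 591 against 6388 ± 1219 CPM (adjusted p = 0.259 and 0.127). The chains of type VI collagen differed among themselves. Col6a1, Col6a2 and Col6a3 were not called (adjusted p = 0.251, 0.31 and 0.888), Col6a4 was higher in the colon (17.6 ± 4.98 against 141 ± 24.1 CPM, log2 fold change -3.0) and Col6a5 higher in the small intestine (244 ± 20.4 against 60 ± 12.6 CPM, log2 fold change 2.02). The membrane collagen Col23a1 was at 337, 463 and 254 against 3.09, 19.9 and 13.3 CPM (log2 fold change 4.86, SE 0.58, adjusted p = 0.00118). Only the call of Col14a1 (116 ± 40.6 against 33.7 ± 4.60 CPM) was lost when 1 library was left out, in 4 of 6 fits (adjusted p up to 0.0641 without colonic replicate 1).

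Basement membrane genes were called mainly in the small intestine, 4 against 1 of 22 tested, with a median of 0.54 and list sums of 18261 to 24776 against 11230 to 13320 CPM. Hmcn2, a hemicentin, was at 6904, 8083 and 2483 against 860, 930 and 550 CPM (log2 fold change 2.90, SE 0.40, adjusted p = 0.00286), with small intestinal replicate 3 well under the others. Its relative Hmcn1 was at 217 ± 71.8 against 57.3 ± 5.46 CPM. Nid2, which links laminin to type IV collagen, was at 280, 287 and 281 against 49.4, 48.0 and 52.7 CPM (log2 fold change 2.50, SE 0.22, adjusted p = 0.000196), and Smoc2 at 247, 281 and 243 against 2.01, 1.85 and 4.98 CPM (log2 fold change 6.45, SE 0.42, adjusted p = 5.45e-05). The replicates of Nid2 lay close together in each tissue. Lama5 was the colonic member, at 4.05, 6.05 and 1.13 against 126, 152 and 204 CPM (log2 fold change -5.38, SE 0.54, adjusted p = 0.000448), while Lamb1, Lamc1 and Col4a1 did not pass the test (adjusted p = 0.212, 0.302 and 0.953). All 5 calls were kept whichever library was left out.

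Of 24 tested fibulins, elastic fibre genes and cross-linking enzymes, 4 were called higher in the colon against 1 in the small intestine. The group as a whole did not lean to the colon, with a median of 0.12, 13 positive values and 11 negative ones, and list sums of 7387 to 7846 CPM in the small intestine against 5643 to 7438 CPM in the colon. Fbln1 was at 6.80, 8.22 and 15.4 against 273, 409 and 351 CPM (log2 fold change -5.09, SE 0.37, adjusted p = 7.17e-05), and Fbln2 at 9.23 ± 4.62 against 96.9 ± 28.1 CPM, whereas Fbln7 was higher in the small intestine (112 ± 28.4 against 24.9 ± 4.28 CPM). Of the enzymes, Plod2, which hydroxylates collagen lysines, was at 98.7 ± 13.2 against 537 ± 89.4 CPM and Lox, lysyl oxidase, at 22.9 ± 13.4 against 124 ± 16.3 CPM. The small proteoglycan Aspn was at 47.7 ± 32.2 against 406 ± 82.9 CPM. Dcn and Lum, of the same family, did not pass the test (adjusted p = 0.0834 and 0.954).

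Enzymes that shape heparan sulfate, the glycan that holds FGF, Wnt and BMP ligands near the cell, were called in both directions, 4 higher in the small intestine against 2 in the colon of 29 tested. Hpse, heparanase, which cuts the chains, was at 1.3, 2.23 and 0.250 against 138, 176 and 125 CPM (log2 fold change -6.74, SE 0.58, adjusted p = 0.000178). Hpse2, its relative without this activity, was at 328, 307 and 237 against 32.2, 45.8 and 14.5 CPM (log2 fold change 3.24, SE 0.39, adjusted p = 0.00137). The pair was thus called in opposite directions, as were the 6-O-endosulfatases Sulf1 (881 ± 99.7 against 233 ± 33.2 CPM) and Sulf2 (8.93 ± 3.45 against 44.4 ± 11.1 CPM). Sulf2 and the low-level Hs3st6 lost their calls in 3 and 5 of 6 fits (adjusted p up to 0.0991 without colonic replicate 3 and 0.0883 without small intestinal replicate 2), and Hs3st3b1 (413 ± 13.1 against 110 ± 21.8 CPM) kept it in all.

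Of 75 tested matrix proteases and inhibitors, 4 were called higher in the small intestine against 5 in the colon. Adam12 (398 ± 82.3 against 87.8 ± 30.7 CPM) and Adam11 (62.0 ± 14.8 against 9.56 ± 3.97 CPM) were higher in the small intestine. Adam23 was at 2.90, 3.58 and 2.88 against 129, 157 and 151 CPM (log2 fold change -5.53, SE 0.32, adjusted p = 2.95e-05), and the urokinase Plau and the cathepsins Ctsc and Ctsh were also higher in the colon, at 148 ± 37.3, 179 ± 25.4 and 91.1 ± 20.6 CPM there. Among 21 integrins, the collagen-binding chain Itga11 was at 1881, 2041 and 1443 against 343, 315 and 329 CPM (log2 fold change 2.44, SE 0.20, adjusted p = 0.000129) and Itga4 at 38.6 ± 12 against 182 ± 41.5 CPM. Itga11 was thus higher in the tissue in which Col3a1 was lower. The call of Itgb3, also higher in the colon, was lost in 4 of 6 fits (adjusted p up to 0.115 without small intestinal replicate 1).

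**Figure D4:**
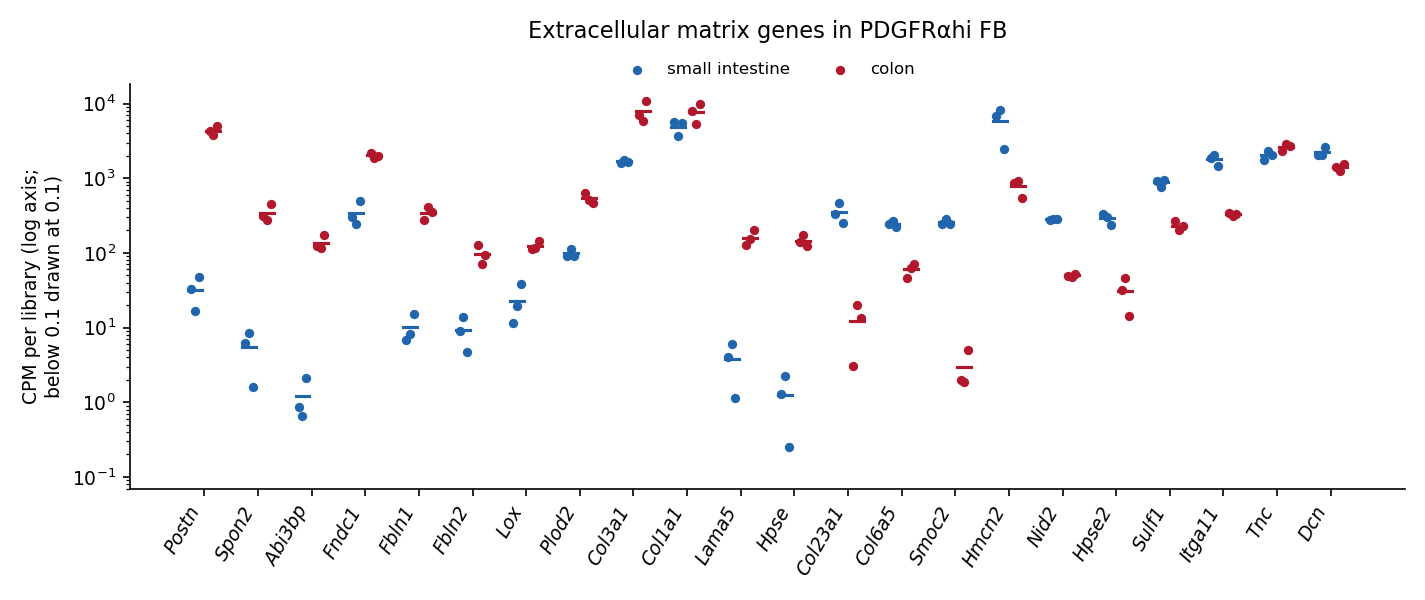
CPM of 22 matrix genes in each library (points, logarithmic axis), with bars at the mean of 3 libraries; blue is small intestine and red is colon. Postn, Spon2, Abi3bp, Fbln1, Lama5 and Hpse are higher in the colon, Col23a1, Smoc2, Hmcn2, Nid2 and Itga11 higher in the small intestine, and Col1a1, Tnc and Dcn were not called.

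Of 84 tested interferon-induced genes, 12 were called, all higher in the small intestine, and 71 values were positive and 13 negative, with a median of 0.72. The list summed to 6123 to 8563 CPM in the small intestine against 3319 to 4062 CPM in the colon, ranges that did not overlap. Among the members called were GTPases of the IRG and GBP families (Irgm2, Igtp, Iigp1, Gbp6, Gbp10), Slfn5 and Slfn8, Ifi205 and Ifi206, Ifit3 and the immunoproteasome subunit Psmb9. To show the DNA in front of these genes, the 250 bases before the annotated start of 4 of them are printed 5′ to 3′ on the strand of the gene (RefSeq, GRCm38.p6), with matches to GAAA, any 2 bases and GAAA again, the core of the interferon-stimulated response element, in capitals on either strand. The positions are chr11:58214727-58214976 (+) for Irgm2, chr11:58199306-58199555 (+) for Igtp, chr19:34583279-34583528 (+) for Ifit3 and chr17:34187331-34187580 (-) for Psmb9.
Irgm2: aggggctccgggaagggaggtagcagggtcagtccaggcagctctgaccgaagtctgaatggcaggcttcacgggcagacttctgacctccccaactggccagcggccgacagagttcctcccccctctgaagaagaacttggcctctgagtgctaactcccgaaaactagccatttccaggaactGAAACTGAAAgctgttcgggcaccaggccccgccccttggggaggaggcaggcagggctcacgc
Igtp: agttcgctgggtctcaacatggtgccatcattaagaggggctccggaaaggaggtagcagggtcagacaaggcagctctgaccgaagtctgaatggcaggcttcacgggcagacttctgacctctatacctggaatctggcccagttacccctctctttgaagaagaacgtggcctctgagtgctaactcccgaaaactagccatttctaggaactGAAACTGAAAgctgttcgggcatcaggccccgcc
Ifit3: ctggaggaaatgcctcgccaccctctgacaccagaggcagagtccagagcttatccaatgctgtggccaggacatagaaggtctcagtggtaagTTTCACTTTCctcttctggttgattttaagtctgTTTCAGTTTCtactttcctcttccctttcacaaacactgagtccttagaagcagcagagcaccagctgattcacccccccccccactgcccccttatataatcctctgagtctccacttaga
Psmb9: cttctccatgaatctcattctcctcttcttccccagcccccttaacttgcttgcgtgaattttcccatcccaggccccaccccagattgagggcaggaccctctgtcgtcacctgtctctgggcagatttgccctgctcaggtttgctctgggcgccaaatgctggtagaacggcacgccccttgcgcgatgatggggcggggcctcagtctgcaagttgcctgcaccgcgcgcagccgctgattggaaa

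The Irgm2 and Igtp windows each hold 1 match, 54 and 24 bases before the start, the Ifit3 window 2, the nearest 112 bases before it, and the Psmb9 window none. Of the 12 called genes, 8 have an entry in the RefSeq promoter table, and 7 of these 8 (87.5%) hold the motif, Slfn5, Slfn8, Ifi205 and Ifi206 included. It is found before 27 of 52 (51.9%) interferon-induced genes that were tested and not called, 355 of 10809 (3.28%) genes tested and 978 of 32851 (2.98%) promoters of the table. Before the 110 other genes higher in the small intestine that have an entry it was found 2 times (1.82%), and before 179 genes higher in the colon 1 time (0.559%). A match describes these letters and is not evidence of a bound site.

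Irgm2 was at 504, 293 and 403 CPM in the small intestine and at 83.3, 142 and 108 CPM in the colon (log2 fold change 1.85, SE 0.28, adjusted p = 0.00507). Slfn5 was at 112, 133 and 107 against 5.37, 12.7 and 8.79 CPM (log2 fold change 3.71, SE 0.38, adjusted p = 0.000469), and Psmb9 at 191, 91.5 and 160 against 14.2, 27.0 and 34.3 CPM. The spread within the small intestine was wide for several of them, as for Igtp at 286, 132 and 98.7 CPM. Gbp6, Gbp10 and Ifit3 share at least 50% of their sequence stretches with other genes, so their separate values are uncertain. The receptor genes Ifngr1, Ifngr2, Ifnar1 and Ifnar2 did not pass the test (adjusted p = 0.469, 0.873, 0.9 and 0.979), nor did the inducible factors Irf1 and Irf7 (adjusted p = 0.28 and 0.325) or Isg15, at 14.2 ± 5.59 and 10.3 ± 2.52 CPM. The count of calls was 6 to 12 when 1 library was left out, 16 without small intestinal replicate 3 and colonic replicate 2 together, and 2 to 16 over the other alternatives. Irgm2 and Psmb9 kept their calls in all fits with 1 library left out, and Igtp and Iigp1 lost theirs in 2 and 3 of them (adjusted p up to 0.089 and 0.123, each without colonic replicate 1).

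Of 19 tested MHC genes, 4 were called, all higher in the small intestine, and the median was 0.77, with 12 positive values and 7 negative ones. Tap1, a subunit of the peptide transporter for class I molecules, and the immunoproteasome subunit Psmb8 did not pass the test (adjusted p = 0.636 and 0.69). H2-Q7, a non-classical class I gene, was at 272, 179 and 285 against 51.5, 47.2 and 54.2 CPM (log2 fold change 2.27, SE 0.26, adjusted p = 0.000936), and the classical H2-D1 at 925, 893 and 449 against 229, 190 and 306 CPM (log2 fold change 1.65, SE 0.30, adjusted p = 0.0133). B2m, the light chain common to class I molecules, was at 2434, 2113 and 2094 against 814, 797 and 1154 CPM, which was below the fold threshold (log2 fold change 1.26, SE 0.20, adjusted p = 0.0059). H2-K1 lay just under it as well (log2 fold change 1.47, adjusted p = 0.0264). Calls of MHC genes higher in the small intestine numbered 1 to 6 when 1 library was left out, and H2-D1, H2-Q4 and H2-Q10 lost theirs in 3, 2 and 4 of the 6 fits (adjusted p up to 0.097, 0.0688 and 0.0728, each without colonic replicate 1). Ptprc, the marker of leukocytes, was at 3.63 to 6.22 CPM in the small intestine and 2.82 to 4.69 CPM in the colon.

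Of 25 tested chemokine genes, 3 were called (12%), and of 78 tested genes of cytokines and their receptors, 5 (6.41%), beside 2.79% of all genes. Ccl11, eotaxin, which recruits eosinophils, was at 1327, 1116 and 906 CPM in the small intestine and at 7.65, 23.6 and 16.6 CPM in the colon (log2 fold change 6.13, SE 0.42, adjusted p = 6.65e-05). Cxcl16, the ligand of CXCR6 on lymphocytes, was at 175, 206 and 119 against 11.3, 12.9 and 13.8 CPM (log2 fold change 3.71, SE 0.31, adjusted p = 0.000154). The groups were far apart for both genes. The scavenging receptor Ackr3 was higher in the colon (2.93 ± 0.983 against 61.5 ± 15.1 CPM), and its ligand Cxcl12 was at 1574 ± 175 and 1490 ± 269 CPM (adjusted p = 0.931). These were the 3 called chemokine genes. Of the cytokine genes and receptors, Cd274, which encodes the inhibitory ligand PD-L1, was at 104 ± 21.3 against 25.1 ± 2.11 CPM (log2 fold change 2.05, SE 0.29, adjusted p = 0.00346), and Tnfrsf21 at 68.5 ± 26.9 against 10.9 ± 2.84 CPM. The alarmin Il33 was at 20.4, 26.1 and 5.76 against 0.671, 0.995 and 0.147 CPM and its receptor Il1rl1 at 8.54, 3.94 and 4.5 against 61.2, 20.5 and 40.9 CPM, ligand and receptor being called in opposite directions. Both calls were lost in some fits with 1 library left out, 4 and 3 of 6, with adjusted p-values up to 0.0768 and 0.108 without colonic replicate 1.

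Genes of retinoid and xenobiotic handling were called in both directions, 1 in each among 23 tested retinoid genes and 3 of 7 tested genes of the aryl hydrocarbon receptor pathway. Aldh1a3, which makes retinoic acid, was at 277, 483 and 197 CPM in the small intestine and at 12.9, 22.2 and 17 CPM in the colon (log2 fold change 4.2, SE 0.39, adjusted p = 0.000261). Aldh1a1 was at 1608 ± 404 against 655 ± 43.4 CPM, below the fold threshold (log2 fold change 1.3, SE 0.21, adjusted p = 0.00727), and the retinoic acid receptor Rarg was higher in the colon, at 0.808 ± 0.727 against 31.1 ± 12.9 CPM. The aryl hydrocarbon receptor gene Ahr was at 8.68, 9.63 and 33.4 against 241, 226 and 241 CPM (log2 fold change -3.78, SE 0.50, adjusted p = 0.00231). Cyp1b1, which is known as a target of that receptor, was on the other side, at 17.2, 33.1 and 38.0 CPM in the small intestine and at most 0.147 CPM in the colon, at least 69.7-fold higher. The receptor's partner Arnt did not pass the test (adjusted p = 0.918), and the repressor Ahrr, higher in the colon at 32.8 ± 16.6 CPM, lost its call in 4 of 6 fits (adjusted p up to 0.107 without small intestinal replicate 2).

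Regional and mesenchymal transcription factors, Hox genes aside, were called mainly in the colon, 10 against 2 of 78 tested, with a median of -0.01. Besides Pitx1, the LIM-homeodomain factor Isl1 had no count in the small intestine and was at 14.8, 16.1 and 17.3 CPM in the colon, at least 48.8-fold higher (adjusted p = 0.00157). Snai2 and Zeb2, known as drivers of epithelial-mesenchymal transition, were at 7.56 ± 4.86 against 135 ± 39.4 CPM (log2 fold change -4.18) and at 133 ± 7.64 against 408 ± 34.1 CPM (log2 fold change -1.62), and Tbx3 was at 53.4 ± 16.3 against 216 ± 53.1 CPM. These calls were kept whichever library was left out. Sox9 was higher in the small intestine (119 ± 35.2 against 30.2 ± 8.14 CPM) but lost its call in 2 of 6 fits (adjusted p up to 0.0617 without colonic replicate 1). The factors that mark gut mesenchyme did not pass the test, Foxf1 and Foxf2 with adjusted p-values of 0.267 and 0.966 and Nkx2-3 with 0.769, and Foxl1, a marker of subepithelial cells, was at 16.0 ± 11.4 against 64.2 ± 10.6 CPM (adjusted p = 0.072). The number called higher in the small intestine was 1 to 4 when 1 library was left out and 0 to 4 over the other alternatives, and without small intestinal replicate 3 and colonic replicate 2 together 14 members were called higher in the colon against 4.

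Contractile genes were called mainly in the small intestine, 5 against 1 of 43 tested, with a median of 0.31. Akap12, a scaffold protein, was at 1506, 1536 and 1385 against 272, 387 and 276 CPM (log2 fold change 2.24, SE 0.21, adjusted p = 0.000261). Myh11, smooth muscle myosin, was at 1214, 2162 and 1523 against 352, 475 and 674 CPM (log2 fold change 1.71, SE 0.29, adjusted p = 0.00822), and Des, desmin, at 74.4, 76.8 and 19.6 against 5.37, 2.84 and 4.1 CPM. Smtnl2 and Svil were called in the same direction (log2 fold changes 3.91 and 1.86). Acta2, the actin of myofibroblasts, was at 1088 ± 176 and 1100 ± 404 CPM (adjusted p = 0.991), and Tagln at 263 ± 89 and 181 ± 42.6 CPM (adjusted p = 0.487). The call of Myh11 was lost in 3 of 6 fits (adjusted p up to 0.0581 without colonic replicate 1). The number of members called higher in the colon was 0 to 2 when 1 library was left out, 3 without small intestinal replicate 3 and colonic replicate 2 together and 0 to 5 over the other alternatives, where 3 to 5 were called higher in the small intestine.

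The colonic side held a group of genes known from wound repair and coagulation, 6 of 24 tested and none in the small intestine, with a median of -1.04. Cd44, the hyaluronan receptor, was at 169, 177 and 213 against 958, 1112 and 1161 CPM (log2 fold change -2.53, SE 0.20, adjusted p = 0.000128). Procr, the endothelial protein C receptor, was at 211, 227 and 113 against 1258, 837 and 851 CPM (log2 fold change -2.42, SE 0.30, adjusted p = 0.0015). Cd109, a binder of TGF-β, had no count in the small intestine and was at 51.0, 34.1 and 69.3 CPM in the colon, at least 157-fold higher, and Lgals3 was at no more than 0.235 against 9.26, 12.7 and 10.6 CPM. Thbd, which activates protein C together with Procr, was at 3266 ± 367 and 3120 ± 210 CPM (adjusted p = 0.931). The number of members called was 5 to 7 when 1 library was left out. S100a10 lost its call in 5 fits (adjusted p up to 0.216 without colonic replicate 3), and over the other alternatives 2 to 7 genes were called. Fn1, fibronectin, was at 5224 ± 165 against 10891 ± 2189 CPM, below the fold threshold (log2 fold change -1.06, SE 0.17, adjusted p = 0.00727).

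Nerve-related, growth factor binding and lipid genes were also called in the colon. Among 71 axon guidance and neurotrophic genes, 4 were called, all in this direction. The adhesion molecule Ncam1 was at 84.0, 102 and 105 against 764, 664 and 855 CPM (log2 fold change -2.97, SE 0.22, adjusted p = 7.17e-05), although cells with high NCAM had been excluded in both sorts. Negr1 was at 43.1 ± 5.19 against 225 ± 25.2 CPM, Sema3a at 4.38 ± 2.18 against 36.6 ± 9.28 CPM, and Chl1 at most 0.125 CPM against 27.1, 15.6 and 17.3 CPM. These 4 calls were kept whichever library was left out, but 0 to 2 members were then called higher in the small intestine, and without small intestinal replicate 3 and colonic replicate 2 together 3 were, beside 6 in the colon. The glia markers summed to 3.33 to 8.28 CPM in the small intestine against 4.1 to 11.9 CPM in the colon. Of 10 tested IGF ligands and binding proteins 3 were called, all higher in the colon. Igfbp6 had no count in the small intestine and was at 23.1, 3.13 and 21.1 CPM in the colon, whereas Igfbp5 and Igfbp7 did not pass the test (adjusted p = 0.506 and 0.163). Igfbp3 lost its call in 4 of the 6 fits that left out 1 library (adjusted p up to 0.142 without colonic replicate 2). Of 32 fatty acid genes 4 were called, the desaturase Scd1 at 59.1 ± 13.9 against 215 ± 60.5 CPM and the lipase Lipg at 0.291 ± 0.289 against 22.8 ± 4.89 CPM among them. This number was 3 to 4 when 1 library was left out and 0 to 6 over the other alternatives. Hcar2 lost its call in all 6 fits that left out 1 library (adjusted p up to 0.156 without colonic replicate 3).

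None of 79 nuclear-encoded oxidative phosphorylation genes (median 0.02), 74 cytosolic ribosomal protein genes (median -0.17), 25 cholesterol genes (median -0.17), 13 mitochondrially encoded genes (median 0.24) and 39 cell cycle genes passed the call threshold. The cell cycle group had a median of -0.83 with 32 of 39 values negative. In this group 0 to 1 genes were called higher in the colon when 1 library was left out, but 8 without small intestinal replicate 3 and colonic replicate 2 together. The proliferation marker Mki67 was at 0.434, 2.00 and 14.6 CPM in the small intestine and at 84.1, 17.9 and 178 CPM in the colon, values that did not overlap but varied widely (adjusted p = 0.0871). Of 24 tested glycolysis genes 2 were called, Pdk1 at 41.5, 47.7 and 41.7 against 12.6, 11.9 and 13.8 CPM and Slc2a1 at 8.96 ± 4.29 against 41.3 ± 4.86 CPM, and each kept its call in 1 of the 6 fits that left out 1 library (adjusted p up to 0.106 without small intestinal replicate 2 and 0.139 without colonic replicate 3). Of 264 tested solute carriers 10 were called (3.79%, against 2.79% of all genes), 6 of them higher in the small intestine, a number that was 1 to 6 when 1 library was left out.

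Outside these groups, the genes with the largest differences included several that were near absence in 1 tissue. Higher in the small intestine were Dio2, the deiodinase that activates thyroid hormone, at 325, 414 and 478 against 8.85, 1.56 and 16.4 CPM (log2 fold change 5.50, SE 0.65, adjusted p = 0.00109), and Angptl1, an angiopoietin-like protein, at 247, 289 and 184 against 1.34, 0.142 and 6.30 CPM (log2 fold change 6.54, SE 0.80, adjusted p = 0.00139). Tmem132c, Plcxd3 and Brinp3 were at 35.9 ± 19.2, 34.7 ± 8.48 and 26.8 ± 8.53 CPM there and at most 0.402 CPM in the colon. Higher in the colon were Cps1, known from the urea cycle, without a count in the small intestine and at 19.7, 6.82 and 12.9 CPM in the colon, and Nxf7, at 44.4, 41.2 and 39.0 CPM, also against no count. Rgs2, a brake on signalling through Gq was at 4.2, 7.58 and 2.63 against 230, 230 and 229 CPM (log2 fold change -5.54, SE 0.40, adjusted p = 7.17e-05), and its colonic values were nearly equal. Chosen after their values had been seen were Cav1, caveolin-1, at 199, 240 and 263 against 1452, 1145 and 1399 CPM (log2 fold change -2.51, SE 0.21, adjusted p = 0.000129), Anpep, at 143 ± 21.8 against 567 ± 25.2 CPM, and Glp2r, the receptor of the intestinal growth hormone GLP-2, at 18.1 ± 9.20 against 102 ± 12.1 CPM.

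To see where the tissue difference of PDGFRαhi FB departs from that of other cells, it was tested against the tissue difference of Fgfr2+ FB, the neighbouring subset, and of pericytes. Pericytes had been sorted with the same gate in both tissues, but Fgfr2+ FB were ESAM-1-PDGFRaintCD34- cells in the small intestine and ESAM-1-PDPNhiCD34+CD90- cells in the colon, so gate and tissue cannot be told apart for them either. The interaction with Fgfr2+ FB was called for 201 of 15673 genes (1.28%), and that with pericytes for 69 of 15662 (0.441%). In Fgfr2+ FB themselves 485 genes (3.09%) and in pericytes 148 genes (0.945%) were called between the tissues. Of the 406 genes of PDGFRαhi FB, 111 were also called in the same direction in Fgfr2+ FB, which is 27.3% of the PDGFRαhi FB calls and 22.9% of the Fgfr2+ FB calls, and 11 in the opposite direction. With pericytes the shared calls were 21, or 5.17% and 14.2%, and 6 were opposite. The interaction was called for 102 of the 406 genes against Fgfr2+ FB and for 39 against pericytes. The number of interactions called against Fgfr2+ FB was 139 to 196 when 1 PDGFRαhi FB library was left out, and against pericytes 15 to 35, so the latter moved by more than 1.5 times for each of the 6 libraries.

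**Figure D5:**
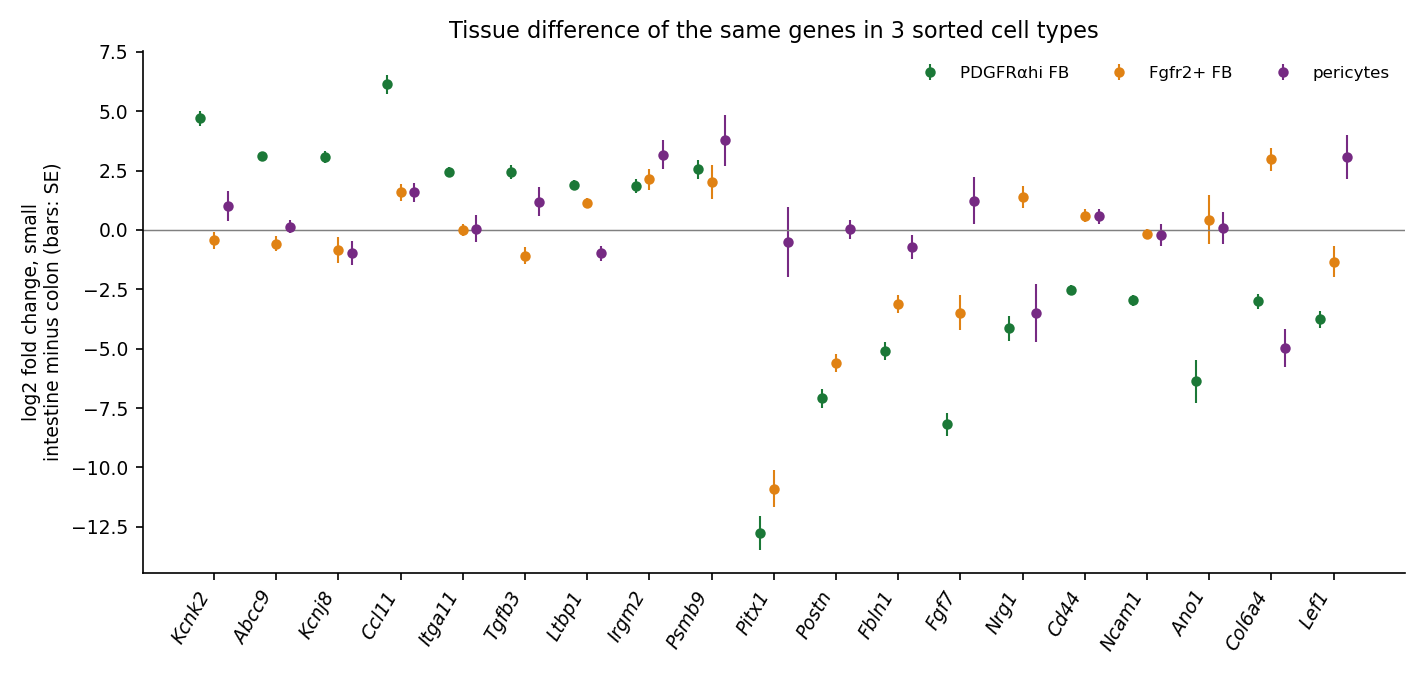
log2 fold change between small intestine and colon (points) with its SE (bars) for selected genes in PDGFRαhi FB (green), Fgfr2+ FB (orange) and pericytes (purple). The points of Kcnk2, Abcc9, Kcnj8, Cd44 and Ano1 in PDGFRαhi FB lie apart from those of the other cell types, while Irgm2 and Psmb9 are positive in all 3.

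The potassium channels separated the cell types. Abcc9 differed by 3.1 (SE 0.20) between tissues in PDGFRαhi FB, by -0.57 (SE 0.31) in Fgfr2+ FB and by 0.13 (SE 0.27) in pericytes, all on the log2 scale. The interaction was called against both, at 3.66 (SE 0.44, adjusted p = 0.000434) and 2.97 (SE 0.39, adjusted p = 0.00581). Kcnj8 gave interactions of 3.94 (SE 0.76, adjusted p = 0.0138) and 4.07 (SE 0.76, adjusted p = 0.0349). Across the 10 populations, normalized over all 30 libraries, Abcc9 was at 1784 CPM in small intestinal PDGFRαhi FB, near the 2136 and 1927 CPM of small intestinal and colonic pericytes, and at most 204 CPM in the other populations. Kcnk2 and Itga11 differed from Fgfr2+ FB (interactions 5.14 and 2.43, adjusted p = 0.000238 and 0.0021), and the interaction with pericytes did not pass the test for either (adjusted p = 0.102 and 0.259).

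On the colonic side, Nrg1 was higher in the colon in PDGFRαhi FB but at 1.39 (SE 0.48) in Fgfr2+ FB, an interaction of -5.53 (SE 0.72, adjusted p = 0.000704). In pericytes Nrg1 was at -3.50 (SE 1.23), and the interaction with pericytes did not pass the test (-0.65, SE 2.36, adjusted p = 0.963). Cd44 and Zeb2 were called against both cell types, Cd44 at -3.13 (SE 0.39) and -3.11 (SE 0.45) and Zeb2 at -1.9 (SE 0.25) and -2.51 (SE 0.28). Cd44 was at 983 CPM in colonic PDGFRαhi FB and at 116 to 282 CPM in the other 9 populations. Col6a4 was higher in the colon in PDGFRαhi FB and pericytes but higher in the small intestine in Fgfr2+ FB (log2 fold change 2.98, SE 0.48), an interaction of -5.98 (SE 0.67, adjusted p = 0.000344). For Pitx1 and Postn the interaction with Fgfr2+ FB was not called, at -1.86 (SE 1.18, adjusted p = 0.695) and -1.47 (SE 0.46, adjusted p = 0.164), and for Fgf7, which was higher in the colon in both subsets, it was called at -4.66 (SE 1.06, adjusted p = 0.0412).

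The interferon-induced genes gave no called interaction with Fgfr2+ FB among the 12 members called here, and 1 with pericytes. The group's median was 1.16 in Fgfr2+ FB, where 17 of 86 tested members were called higher in the small intestine, and 1.5 in pericytes, where 7 of 86 were. Irgm2 differed by 1.85 (SE 0.28) in PDGFRαhi FB, by 2.13 (SE 0.45) in Fgfr2+ FB and by 3.17 (SE 0.61) in pericytes, and the direction was the same in all 3. Of the 4 called markers of pericytes and smooth muscle, the interaction with pericytes was called for Myh11, Des and Rgs5 but not for Cspg4 (2.49, SE 0.74, adjusted p = 0.205). Myh11 was higher in the small intestine in PDGFRαhi FB (1.71, SE 0.29) and higher in the colon in pericytes (-2.17, SE 0.30), with an interaction of 3.88 (SE 0.42, adjusted p = 0.00187), and Rgs5, at -0.10 (SE 0.28) in pericytes, gave one of 2.35 (SE 0.40, adjusted p = 0.0222).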

How the data were processed

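Stromal cells had been sorted from intestines and sequenced in bulk with the Ovation Ultralow V2 kit. The submitters' processing notes name FastQC 0.11.2, Trim Galore 0.4.0 and kallisto 0.42.5 and the build GRCm38. The authors deposited, per transcript, estimated counts and TPM. Estimated counts were summed to genes through GENCODE M21 (97116 of 98492 transcripts, 32342 genes), rounded and tested with edgeR 4.0.16 in R 4.3.3: TMM normalization, a minimum of 6 counts in 3 or more of the 6 libraries, and the quasi-likelihood test with Benjamini-Hochberg adjustment. kallisto splits reads of near-identical genes by estimation, so genes sharing at least 50% of their 31-mers were taken as uncertain. A fold against a population at 0 was bounded with 3 counts per library. CPM is per library and not per length, so levels were not ranked between genes. In simulated data for this comparison, 14139 genes were tested, 200 of them changed by a log2 of 2. Of the changed genes 110 were called, and 7 other genes were. The changed genes were drawn only from those above a minimum mean CPM, so recovery at lower levels was not simulated. The deviation shared by small intestinal replicate 3 and colonic replicate 2 was not simulated either. Named were the leading genes in each direction, up to 15 with a mean of at least 10 CPM, up to 6 called members per list, and further genes chosen after their values were seen. Members and lists were chosen with earlier results of these data known. DESeq2 1.42.0, other normalizations, filters and models, length-scaled TPM counts and leaving out each library were tried. Some items are not reported here.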

Additional observations from a re-analysis of the deposited data

Results flagged for a closer look

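Groups of 3 libraries are too small for a test of single libraries that stand apart. Of the named genes called in PDGFRαhi FB, 66 had a called interaction with Fgfr2+ FB and 26 with pericytes. The differences below are those of the 11 with both and, chosen after their values were seen, of Nrg1 and C7 against Fgfr2+ FB. They are named genes whose tissue difference in PDGFRαhi FB departed from that of another cell type by edgeR's test of the interaction, in log2 of small intestine over colon. Against Fgfr2+ FB the tissue difference was more positive for C7 (5.70), Ccl11 (4.55), Abcc9 (3.66), Kcnj8 (3.94) and Crispld2 (2.63). It was more negative for Nrg1 (-5.53), Fgf7 (-4.66), Otulinl (-12.24), Abi3bp (-4.14), Ano1 (-6.93), Zeb2 (-1.90), Cd44 (-3.13) and Ccdc3 (-3.28). Against pericytes it was more positive for Ccl11 (4.55), Abcc9 (2.97), Kcnj8 (4.07) and Crispld2 (3.85). It was more negative for Fgf7 (-9.32), Otulinl (-15.80), Abi3bp (-5.13), Ano1 (-6.52), Zeb2 (-2.51), Cd44 (-3.11) and Ccdc3 (-5.46). The values of Otulinl depend on the prior count, since it was near 0 CPM in the small intestine. Crispld2 and Ccdc3 were chosen after their values were seen.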

How the results depend on the processing

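All 406 differences kept their sign in each alternative that fitted them, which their lack of overlap between the tissues nearly fixed in advance. The call itself was kept in all alternatives by 114. DESeq2 called 693 genes (278 and 415, small intestine and colon), and 563 interactions with Fgfr2+ FB and 530 with pericytes. A model of all 30 libraries called 166 genes (59 and 107), and a model of 12 libraries called 276 (100 and 176). Leaving out 1 library gave 236 to 465 genes, 95 to 209 and 141 to 256 by direction, with 139 to 196 interactions with Fgfr2+ FB and 15 to 35 with pericytes. Without small intestinal replicate 3 and colonic replicate 2 together, a setting chosen after seeing the data, the counts were 665 (293 and 372), 126 and 6. The sources do not say whether equal numbers mark the same mouse, and same-numbered libraries did not deviate together (correlations 0.023, -0.082 and -0.094). With the replicate block 310 genes were called (134 and 176), with 175 interactions with Fgfr2+ FB and 34 with pericytes. The cause of these shifts was not tested. The median of all genes moved between -0.06 and 0.04. With 3 libraries a population and the simulated recovery given above, genes not called cannot be taken as equal.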
